A study of Mus musculus with 4 samples.

Results

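B-lineage precursors, the marrow cells on the way to B lymphocytes, were examined in 4 single-cell RNA-sequencing (scRNA-seq) libraries of spleen and bone marrow (BM). A barcode, the tag of 1 droplet, was a member when it held at least 500 genes, at most 10% mitochondrial unique molecular identifiers (UMIs, each standing for 1 captured RNA molecule), and a UMI of at least 3 of the 6 genes *Cd79a*, *Cd79b*, *Vpreb1*, *Igll1*, *Ebf1*, and *Pax5*. Of 19089 barcodes that passed the limits on genes and mitochondrial UMIs, 541 were members (2.83%), and 499 of these (92.2%) came from BM. There were 291 members in the BM library of controls (CBM) and 208 in that of tumor-bearing mice (TBM), 10 in the spleen library of controls (CS), and 32 in that of tumor-bearing mice (TS). The members were thus chosen by measured values, the detection of these 6 genes, whose levels are given as a description only.

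The mice were C57BL/6J, 8 to 16 weeks old, and carried either no tumor (controls) or a tumor of PyMT-B6, a cell line from a mammary tumor of a mouse with the polyomavirus middle T oncogene under the MMTV promoter. The study's text states female mice as its default and PBS injection for the controls of this model. There was 1 library per group, and the number of mice behind each is not given in the sources used here, so no difference between groups has a replicate check and no test was run. Cells were depleted of lineage-positive cells with magnetic beads, sorted on CD45, c-Kit, Sca-1, CD31, and CD51, and combined at equal ratios, so a share of barcodes is a share of this mixture and not of the tissue. The CD45-positive gates required c-Kit, and the cells taken from each gate are not given. A difference between libraries in members or their stage therefore cannot be told apart from one in depletion or sorting. All 95% intervals below cover counting error only.

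B cells arise in BM from lymphoid progenitors. EBF1 and PAX5 switch on and hold the B-cell program, the RAG1 and RAG2 proteins cut the immunoglobulin genes for rearrangement, and terminal transferase, the product of *Dntt*, adds bases at the heavy chain joints in pro-B cells. A rearranged heavy chain first pairs with the surrogate light chain, made of the products of *Vpreb1* or *Vpreb2* and *Igll1*, and with the signaling proteins CD79A and CD79B in the pre-B cell receptor. Pre-B cells then lose the surrogate light chain and rearrange a kappa or lambda light chain, which leads to an immature B cell with IgM on its surface.

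The promoter of *Igll1* is shown because this surrogate light chain gene of the rule was found mostly in CBM members, and those of *Vpreb2*, *Dntt*, and *Rag2* because all 3 were among the 12 genes lowest in TBM relative to CBM. Each sequence is from RefSeq (GRCm38.p6), 5′ to 3′ on the strand of the gene, and ends before the first annotated exon. Capitals mark the letters CAGGTG, a motif bound by the transcription factor E2A, or its reverse complement.
Igll1, chr16:16863986-16864235, minus strand: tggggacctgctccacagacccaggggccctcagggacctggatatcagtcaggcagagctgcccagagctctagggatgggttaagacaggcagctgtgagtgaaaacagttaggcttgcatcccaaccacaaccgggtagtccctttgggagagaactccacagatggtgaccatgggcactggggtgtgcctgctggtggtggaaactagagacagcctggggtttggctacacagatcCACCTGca
Vpreb2, chr16:17980315-17980427, plus strand: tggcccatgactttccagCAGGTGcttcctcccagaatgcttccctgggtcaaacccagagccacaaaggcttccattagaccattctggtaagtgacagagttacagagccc
Dntt, chr19:41029025-41029274, plus strand: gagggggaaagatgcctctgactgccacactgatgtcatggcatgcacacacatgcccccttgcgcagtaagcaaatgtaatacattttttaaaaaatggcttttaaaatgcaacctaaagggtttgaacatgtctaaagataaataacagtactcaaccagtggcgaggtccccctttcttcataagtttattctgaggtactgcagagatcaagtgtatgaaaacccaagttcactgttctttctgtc
Rag2, chr2:101624462-101624711, plus strand: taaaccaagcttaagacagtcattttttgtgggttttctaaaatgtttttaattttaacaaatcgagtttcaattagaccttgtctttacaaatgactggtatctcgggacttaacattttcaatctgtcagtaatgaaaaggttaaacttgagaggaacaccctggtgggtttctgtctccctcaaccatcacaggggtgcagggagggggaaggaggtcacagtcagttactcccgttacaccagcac
In windows of 250 bases before the start, searched on both strands, CAGGTG stood in 3 of 5 promoters of the 6 rule genes that had a window (*Cd79a*, *Igll1*, and *Vpreb1*) and in 19.4% of all 27025 genes with a window (17.2% of 32851 windows). The palindromic consensus of EBF1 was in 0 of these 5 and in 0.914% of all genes with a window. *Dntt* and *Rag2* held neither motif in this window. Among 12 genes of recombination and the pro-B stage with a window, 3 held CAGGTG (*Arpp21*, *Rag1*, and *Vpreb2*) and 0 the EBF1 consensus. CAGGTG stood in 8 of 11 genes of pre-B cell receptor signaling and 4 of 18 early B-cell transcription factors with a window, and the EBF1 consensus in 1 of each (*Cd22* and *Foxo1*). A match is a run of letters and not a shown binding site. Only exact matches to each motif were counted, so a window without a match is not shown to lack a binding site. Sites that depart from the palindromic EBF1 consensus or from CAGGTG were not searched for.

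Members made up 7.32% of the passing barcodes of CBM (95% exact binomial interval 6.53 to 8.17, 291 of 3975) and 3.69% of TBM (3.22 to 4.22, 208 of 5632), a TBM share 0.504 times that of CBM. In spleen the shares were 0.256% of CS (0.123 to 0.470, 10 of 3910) and 0.574% of TS (0.393 to 0.810, 32 of 5572), a TS share 2.25 times that of CS. The intervals of CBM and TBM did not overlap, and those of CS and TS did. With a limit of 2 of the 6 genes the order in spleen turned, with 1.82% of CS (71 members) and 1.51% of TS (84 members), while that in BM held (9.64% and 6.13%). The CBM members held 2211341 UMIs in all and the TBM members 1538473, and the spleen members 248153 (CS) and 198324 (TS). A member had a median of 4935 UMIs in CBM and 3438.5 in TBM, and of 22704 in CS and 3005 in TS, so CBM members were deeper than TBM members, and CS members far deeper than the rest. 1 member of CBM and 1 of TBM had a barcode that also passed the limit on genes in another library.

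**Figure D1:**
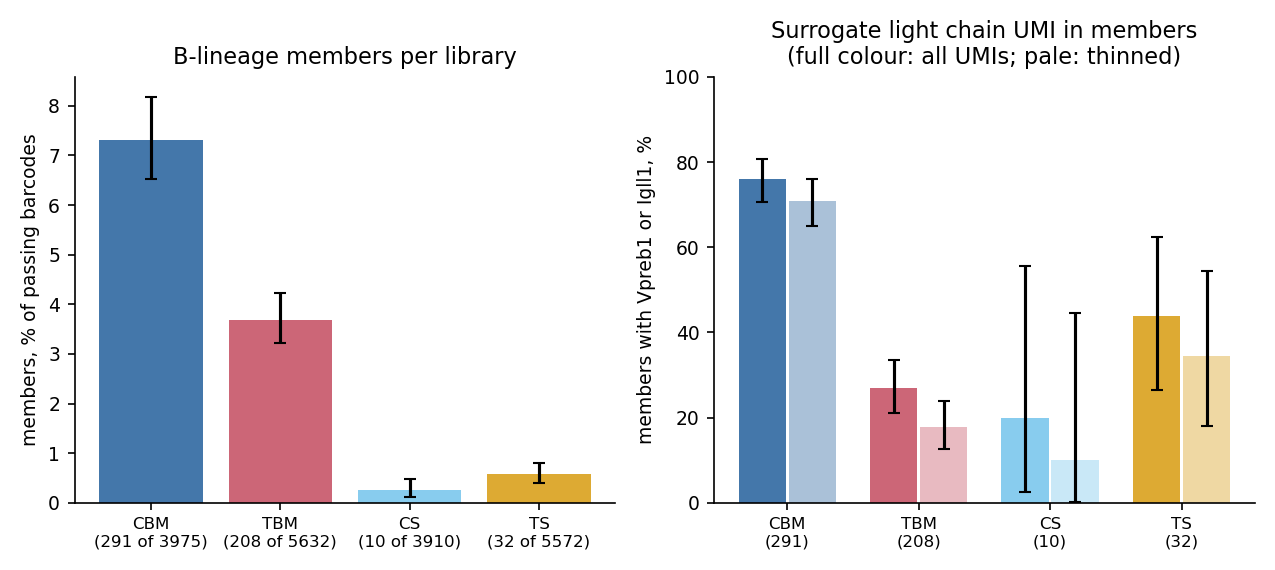
Left, B-lineage members as a percent of passing barcodes in each library; right, the percent of members with a UMI of *Vpreb1* or *Igll1*, from all UMIs (full colour) and after thinning each member to 2000 UMIs (pale, on the members at least that deep). Bars start at 0 and error bars are 95% exact binomial intervals, which cover counting error only. Shares of members run from 0.256% in CS to 7.32% in CBM, and the surrogate light chain share is 75.9% in CBM and 26.9% in TBM.

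The levels of the 6 rule genes are given as CPM, the summed UMIs of a gene per 1000000 UMIs of all members of a library. UMIs from 3′ tags do not scale with transcript length. *Ebf1* was found in 291 of 291 members of CBM and 203 of 208 of TBM, at 3253 and 1934 CPM. *Cd79a* stood at 1197 and 839 CPM, *Cd79b* at 993 and 781 CPM, and *Pax5* at 357 and 227 CPM in CBM and TBM. *Vpreb1* had 1796 CPM in CBM, with a UMI in 220 members, and 257 CPM in TBM, with a UMI in 53. *Igll1* had 818 CPM in CBM (206 members) and 116 CPM in TBM (34 members). The 4 genes used through most of B-cell development were found in like shares of members, down to 82.1% and 75.0% for *Pax5*. The rule itself favors such shares, since a member without the surrogate light chain genes must hold most of these 4. All 4 had a lower CPM in TBM than in CBM. The surrogate light chain genes were found mostly in CBM members. All 6 genes belong to the rule, so this contrast is a description and tests nothing. *Vpreb1* (chromosome 16, 16868403 to 16870843, minus strand, GRCm38) shares 51.0% of its runs of 25 bases with *Vpreb2*, so the counts of these 2 genes are uncertain relative to each other.

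The combinations of rule genes differed in the same way. In CBM, 156 members had all 6 genes, 57 had *Cd79a*, *Cd79b*, *Ebf1*, and *Pax5* without the surrogate light chain genes, and 30 had all but *Pax5*. In TBM, 28 had all 6, 103 had the 4 genes without the surrogate light chain, and 41 had only *Cd79a*, *Cd79b*, and *Ebf1*. In TS, 7 had all 6 and 11 the 4 genes.

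The label of B-lineage precursor was checked with 7 genes that the rule did not use: *Rag1*, *Rag2*, *Dntt*, *Il7r*, *Blnk*, *Vpreb3*, and *Cd93*. In CBM their summed level was 166 CPM in barcodes with none of the 6 rule genes, 241 CPM with 2 (92 barcodes), 1068 CPM with 3 (16 barcodes), and 5202 CPM with 4 to 6 (275 barcodes). In TBM it was 97.8, 113, 1591, and 3398 CPM in the same order, with 137, 56, and 152 barcodes from 2 rule genes on. In TS it was 19.3, 102, 1433, and 3534 CPM. In these 3 libraries the level rose from 2 to 3 rule genes and again at 4 to 6, and in CBM both steps were of like size as a ratio. A UMI of at least 2 of the 7 genes was found in 22.8% of CBM barcodes with 2 rule genes and 87.5% of those with 3, and in 19.7% and 82.1% in TBM.

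CS went against the label. Its 7 barcodes with 3 rule genes had a summed level of 121 CPM of the 7 genes, about that of its 61 barcodes with 2 (140.05 CPM), and only its 3 barcodes with 4 to 6 rule genes reached 3298 CPM. At least 2 of the 7 genes were found in 16.4% of CS barcodes with 2 rule genes, 42.9% with 3, and 66.7% with 4 to 6. The 10 CS members held 29437 UMIs of *Igkc*, the kappa light chain constant region (118624 CPM, in 9 of 10), and 3736 of *Jchain*, the joining chain of secreted IgM and IgA (15055 CPM, in 7 of 10). *Rag1* was found in 2 of them and *Il7r* in 2. The summed level of 8 plasma cell genes was 18263 CPM in CS members, against 825 CPM in CBM, 541 in TBM, and 2133 in TS. The CS members are therefore named only by the rule below, and no precursor value is drawn from them.

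**Figure D2:**
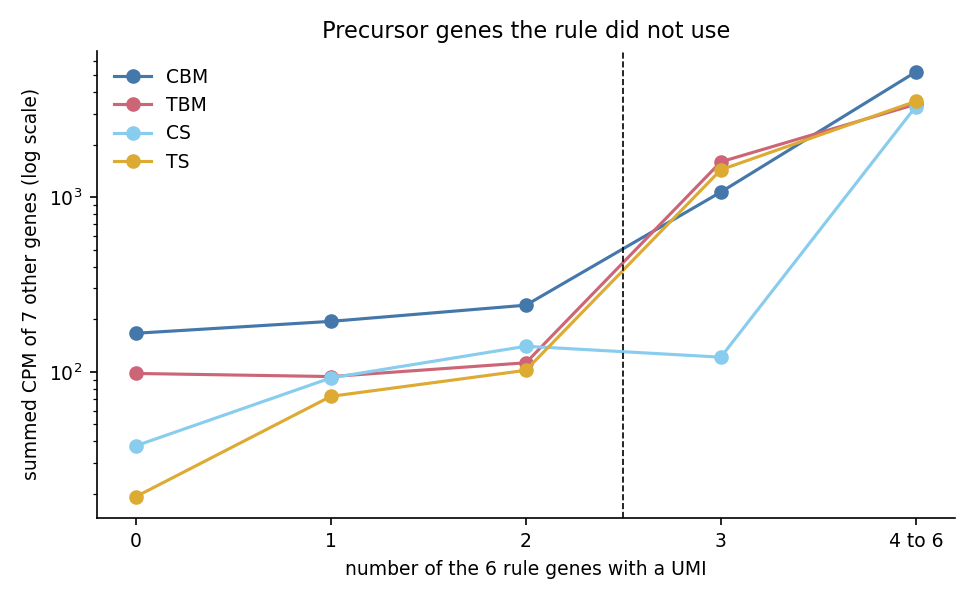
Summed level (CPM, log axis) of 7 precursor genes outside the rule, against the number of the 6 rule genes with a UMI, in each library; the dashed line marks the limit of the rule. CBM, TBM, and TS rise between 2 and 3 rule genes (241 to 1068 CPM in CBM), and CS stays at 140.05 and 121 CPM and rises only at 4 to 6, which holds 3 barcodes.

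Genes other than those of the rule were then ranked by how far they stood higher in BM members than in barcodes with none of the 6. Leading genes included *Igkc*, *Chst3*, *Rag1*, *Iglc1*, *Vpreb3*, *Pou2af1*, *Akap12*, *Mzb1*, *Fcrla*, *Ly6d*, and *Blnk*. *Vpreb3*, a pre-B cell receptor assembly protein, had 3025 CPM in CBM members and 1734 in TBM members, against 2.87 and 2.03 CPM in barcodes with none. *Rag1* had 274 CPM (253 to 297) in CBM, in 178 of 291 members, and 231 CPM (208 to 257) in TBM, in 118 of 208, against 0.248 and 0.220 CPM in barcodes with none. Of the genes counted in this comparison, 7.8% in CBM and 6.17% in TBM were at least 2-fold higher in members, and of the recombination and pro-B list 12 of 13 and 7 of 8 were. Since the rule picks cells by genes of the B lineage, these values describe the members and test nothing.

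Genes of other cell types were read in members, in other barcodes, and in free RNA. *Cd3e*, which defines T cells, had 0 UMIs in members of CBM and TBM, and *Kit*, which the hematopoietic sort gates require as a protein, had 52.9 and 42.2 CPM in members against 163 and 117 CPM in barcodes with none. *Ptprc*, which encodes CD45, had 172 and 194 CPM. Members with at least 7 genes of 1 list of another cell type numbered 35 (CBM), 43 (TBM), 2 (CS), and 3 (TS). At the planned limit of 3 genes they numbered 260, 204, 9, and 22. Without those with 7, *Rag1* went from 274 to 358 CPM in CBM and from 231 to 404 CPM in TBM. *Vpreb3* went from 3025 to 3986 CPM and from 1734 to 3125 CPM. These levels thus moved more in TBM than in CBM, and ratios of summed levels depend on which members are kept. The summed level of 14 granulocyte and monocyte genes was 4389 CPM in CBM members and 10112 in TBM members, 8208 and 16316 in barcodes with none, and 13440 and 19463 in barcodes with at most 100 UMIs, which hold free RNA.

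The surrogate light chain genes were found in a larger share of CBM than of TBM members. A UMI of *Vpreb1* or *Igll1*, called the surrogate light chain below, was found in 221 of 291 CBM members (75.9%, 70.6 to 80.7) and in 56 of 208 TBM members (26.9%, 21.0 to 33.5). After each member was thinned to 2000 UMIs, which left out 21 CBM and 17 TBM members, the shares were 70.7% (64.9 to 76.1) and 17.8% (12.7 to 23.98). Without the members with 7 genes of another type they were 76.2% and 26.1%. Both genes belong to the rule, so these shares are a description.

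*Dntt* (chromosome 19, 41029275 to 41059525, plus strand), whose enzyme acts in pro-B cells, was not in the rule and had the lowest TBM to CBM ratio of all named genes. It had 530 CPM (500 to 561) in CBM, with a UMI in 149 of 291 members and at most 49 UMIs in 1 member. TBM had 26.0 CPM (18.6 to 35.4), with a UMI in 11 of 208 members. The log2 ratio of TBM over CBM was -4.35 (-4.84 to -3.89). After thinning, 105 of 270 CBM members (38.9%, 33.0 to 44.99) and 7 of 191 TBM members (3.66%, 1.49 to 7.41) had a UMI, and the share in barcodes with none of the 6 genes was 3.45% and 1.69%. The CBM share was thus far above that of other barcodes, while the interval of the TBM share reached down to that of other barcodes in its library. Free RNA held 40.4 CPM of *Dntt* in CBM and 5.29 CPM in TBM.

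Light chain genes went the other way. *Igkc* had 800 CPM (763 to 838) in 135 of 291 CBM members and 1831 CPM (1764 to 1900) in 168 of 208 TBM members, a log2 ratio of 1.20 (1.11 to 1.28), or 1.21 with all members weighted equally. The highest member held 107 UMIs in CBM and 407 in TBM. After thinning, a UMI was found in 41.5% (35.5 to 47.6) of CBM and 79.6% (73.2 to 85.1) of TBM members. The lambda constant genes *Iglc1*, *Iglc2*, and *Iglc3* had 107, 40.3, and 71.0 CPM in CBM and 211, 141, and 276 CPM in TBM, where *Iglc2* and *Iglc3* share part of their sequence and are uncertain relative to each other. *Ighm*, the heavy chain constant gene of IgM, differed less, with 1851 and 2302 CPM and a log2 ratio of 0.31 (0.25 to 0.38), and after thinning it was found in 91.9% and 92.7% of members. With members weighted equally *Ighm* had 2764 and 4472 CPM, and 2452 and 4025 CPM without members that carried 7 genes of another type.

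*Il7r* and *Rag1* were closer between the libraries in summed levels. *Il7r*, the interleukin 7 receptor on which pro-B and pre-B cells of the mouse depend, had 377 and 506 CPM, with thinned shares of 56.3% and 68.6%. With members weighted equally *Il7r* had 521 and 1003 CPM, and 485 and 860 CPM without members that carried 7 genes of another type. *Rag1* had thinned shares of 45.2% and 40.3%, and 436 and 493 CPM with equal weights, where its level was higher in TBM. *Ms4a1*, which encodes CD20 and appears late, was more than 2-fold higher in TBM (34.4 and 76.7 CPM), with thinned shares of 5.93% and 13.6%, and *Ighd*, the IgD constant gene of mature B cells, had shares of 9.26% and 13.1%. The order of the *Ighd* shares turned without thinning (23.0% and 22.6%) and when thinned to 1000 UMIs (4.48% and 3.94%). *Kit* (4.07% and 4.71%) and *Flt3* (1.48% and 3.66%), which mark earlier progenitors, were found in few members of either library.

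Within CBM the early and the late genes were found mostly in different members. Among the 149 CBM members with *Dntt*, 136 (91.3%) had *Lef1*, 115 (77.2%) had *Vpreb2*, and 34 (22.8%) had *Igkc*. Among the 142 without *Dntt*, 47 (33.1%) had *Lef1*, 26 (18.3%) had *Vpreb2*, and 101 (71.1%) had *Igkc*. The members with *Dntt* were deeper (median 5931 against 3923.5 UMIs), and *Igkc* was nevertheless less frequent in them. *Rag1* and the proliferation gene *Mki67* also parted: *Mki67* was in 41 of 178 CBM members with *Rag1* (23.0%) and in 49 of 113 without it (43.4%), and in TBM in 18 of 118 (15.3%) and 37 of 90 (41.1%). In TBM, the 11 members with *Dntt* included 8 with *Lef1*, 7 with *Vpreb2*, and 4 with *Igkc*. These shares are over cells of 1 library each and are a description.

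TBM and CBM members were then compared across all genes other than the 6 of the rule. A gene was counted when its mean level reached 50 CPM and its UMIs over both libraries reached 20, and it was called at 2-fold or more. A gene under 50 CPM in 1 library was counted only where the other library was higher, so its direction follows from this limit. Of 3268 genes, 45 were at least 2-fold higher in TBM (1.38%) and 61 at least 2-fold lower (1.87%), with a median log2 ratio of -0.01. Most genes therefore lay within 2-fold. With 1 library per group these are ratios between 2 libraries.

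Among the 12 lowest named genes were 4 of the recombination and pro-B list (*Dntt*, *Arpp21*, *Rag2*, and *Vpreb2*) and the transcription factor gene *Lef1*. After *Dntt*, *Arpp21* had 138 CPM in CBM (113 members) and 11.1 in TBM (10 members), a log2 ratio of -3.65 (-4.44 to -2.94). *Lef1*, a Wnt-responsive transcription factor of pro-B cells, had 379 CPM in 183 members and 57.8 CPM in 49 members (-2.71, -3.04 to -2.40). *Bfsp2* had 252 and 42.9 CPM (-2.56), in 132 and 37 members. *Rag2* had 99.5 and 24.7 CPM (-2.01, -2.55 to -1.51), in 126 and 29 members, and *Vpreb2* 229 and 59.8 CPM (-1.94, -2.27 to -1.61), in 141 and 21 members. These 6 genes were found across many CBM members and in a small share of TBM members. Of these, *Vpreb2* shares part of its sequence with the rule gene *Vpreb1*, so its level is not fully independent of the rule.

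The other 6 of the 12 lowest were *Arntl*, the clock factor BMAL1 (-2.28), *Pf4*, a platelet chemokine (-2.16), *Gsn*, the actin-severing gelsolin (-2.12), *Tmem108* (-2.08), *Pde2a*, a phosphodiesterase (-1.80), and *Gfra1*, a GDNF receptor (-1.73). *Pf4* was in 40 CBM members, and 1 member held 381 of its 855 UMIs, so 1 barcode held a large part of its level, and its ratio was -0.57 without the 5% deepest members. *Pde2a* was in 203 of 291 CBM members, at most 11 UMIs in 1 member, and in 69 of 208 TBM members. In barcodes with none of the 6 genes, the log2 ratio was -1.19 for *Dntt*, -1.76 for *Arpp21*, 0.02 for *Pde2a*, and -0.08 for *Pf4*. Among members without the surrogate light chain, *Lef1* (1.27), *Bfsp2* (0.58), and *Pf4* (1.85) had the opposite sign, and *Rag2* (-0.55), *Arntl* (-0.42), *Gsn* (-0.68), *Gfra1* (-0.74), and *Pde2a* (-0.80) came within 2-fold. Of these genes only *Pf4* and *Pde2a* met the limits for counting in this class. *Lef1* had 6 UMIs in CBM and 29 in TBM (-0.02 to 2.83), and *Bfsp2* 8 and 24 (-0.62 to 1.95), so both intervals included 0. *Pf4* had 13 and 94 UMIs here, and over all TBM members 1 held 76 of its 133.

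The 12 highest included 3 genes of the granulocyte and monocyte list (*S100a8*, *S100a9*, and *Ms4a3*) and 2 of the mast cell and basophil list (*Prss34* and *Mcpt8*). *Chil3* (137 CPM in TBM, log2 ratio 8.24), *S100a9* (5.90), *Prss34* (5.67), *S100a8* (5.08), *Ccl6* (3.39), *Mcpt8* (2.76), *S100a4* (2.58), *Lgals3* (2.35), *Hp* (2.32), *Ifitm1* (2.08), and *Ms4a3* (2.06) are known from neutrophils, monocytes, basophils, or their progenitors, and several of them, such as *S100a4*, *Lgals3*, and *Ifitm1*, also from many other cells. *S100a8*, a calprotectin subunit of neutrophils, had 51 UMIs in 47 of 291 CBM members and 1203 UMIs in 113 of 208 TBM members, of which 1 member held 428. *S100a9*, its partner, had 748 UMIs in 94 TBM members, of which 427 were in 1 member, and 18 UMIs in CBM. In TBM, 1 member likewise held 115 of 177 *Prss34*, 117 of 226 *Ccl6*, 109 of 271 *S100a4*, and 70 of 153 *Lgals3* UMIs. *Lgals3* came within 2-fold with members weighted equally (0.92) and without members that carried 7 genes of another type (0.48), and *Ms4a3* in members without the surrogate light chain (0.47). *Chil3* had 1 UMI in CBM, so its ratio has a wide interval (5.75 to 13.56).

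Of the 12 highest genes, 10 were also higher in TBM in barcodes with none of the 6 genes, and 11 in free RNA. *S100a4* was lower in both (-0.76 and -0.44), and *Lgals3* was lower in barcodes with none (-0.17). In barcodes with none of the 6 genes the log2 ratio of TBM over CBM was 3.56 for *S100a8*, 4.25 for *S100a9*, 3.67 for *Chil3*, and 2.02 for *Prss34*, and in free RNA it was 2.67, 3.96, 4.30, and 1.75. *S100a8* stood at 379 CPM in the free RNA of CBM and 2405 CPM in that of TBM, above its level in the members of either. Without members that carried 7 genes of another type, *S100a8* had a log2 ratio of 2.64 and *S100a9* 4.05, and *Ccl6* changed sign to -0.35. The part of free RNA and of other cells in these differences was not tested.

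*Nav2*, a neuron navigator gene, was the remaining one of the 12 highest. It had 32.6 CPM in 46 of 291 CBM members and 182.6 CPM in 108 of 208 TBM members, with at most 5 and 16 UMIs in 1 member (log2 ratio 2.49, 2.11 to 2.88). Its level was 11.8 and 14.1 CPM in barcodes with none and 12.03 and 15.2 CPM in free RNA. The ratio was 2.99 without members that carried genes of other types and 2.91 with all members weighted equally. It was higher in TBM both with the surrogate light chain (27.3 and 82.2 CPM, 1.59) and without it (55.3 and 267.8 CPM, 2.28). The gene spans chromosome 7, 48908716 to 49610090, plus strand, and overlaps 9 other annotated genes, 5 on its own strand, so reads of those cannot be told from its own.

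**Figure D3:**
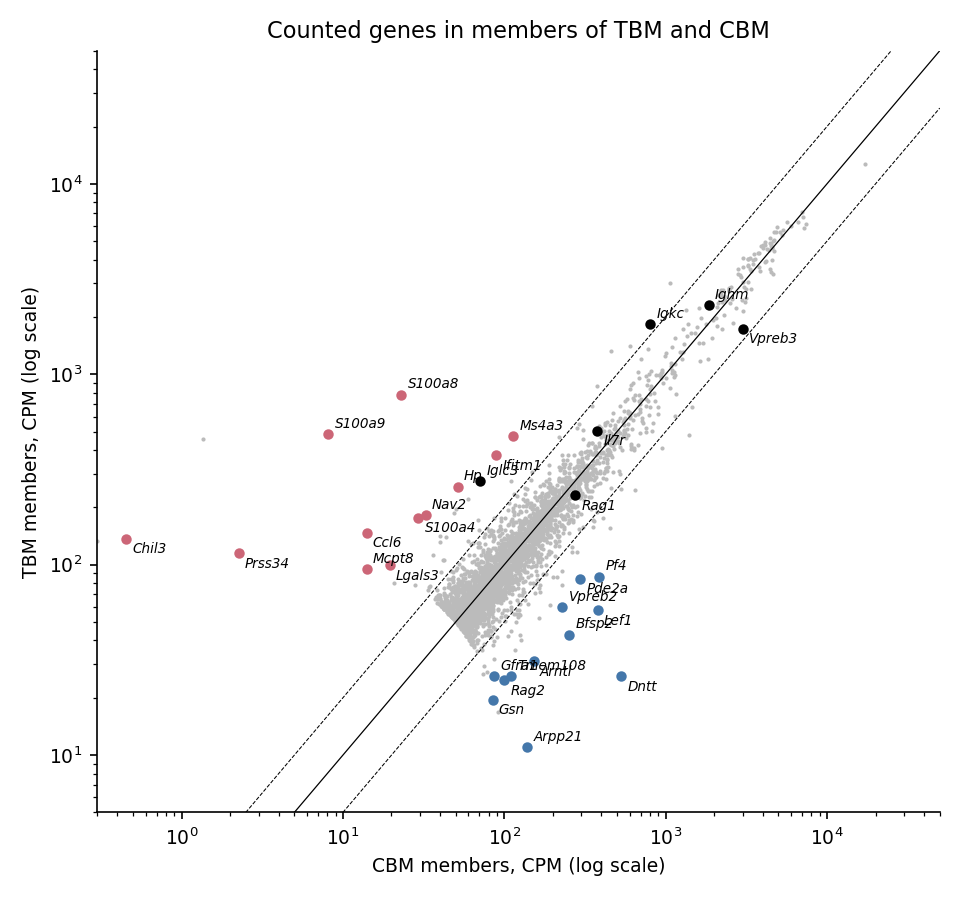
CPM of each counted gene in TBM members (vertical) and CBM members (horizontal), both on log axes, with genes under 0.3 CPM in CBM drawn at the left edge. Colours mark the 12 highest and 12 lowest named genes and black marks 6 further stage genes; the solid line is equality and the dashed lines are 2-fold. *Dntt* and *Arpp21* lie farthest below the lines, *S100a9*, *S100a8*, *Prss34*, and *Chil3* farthest above, and 45 and 61 of 3268 genes lie outside on either side.

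**Figure D4:**
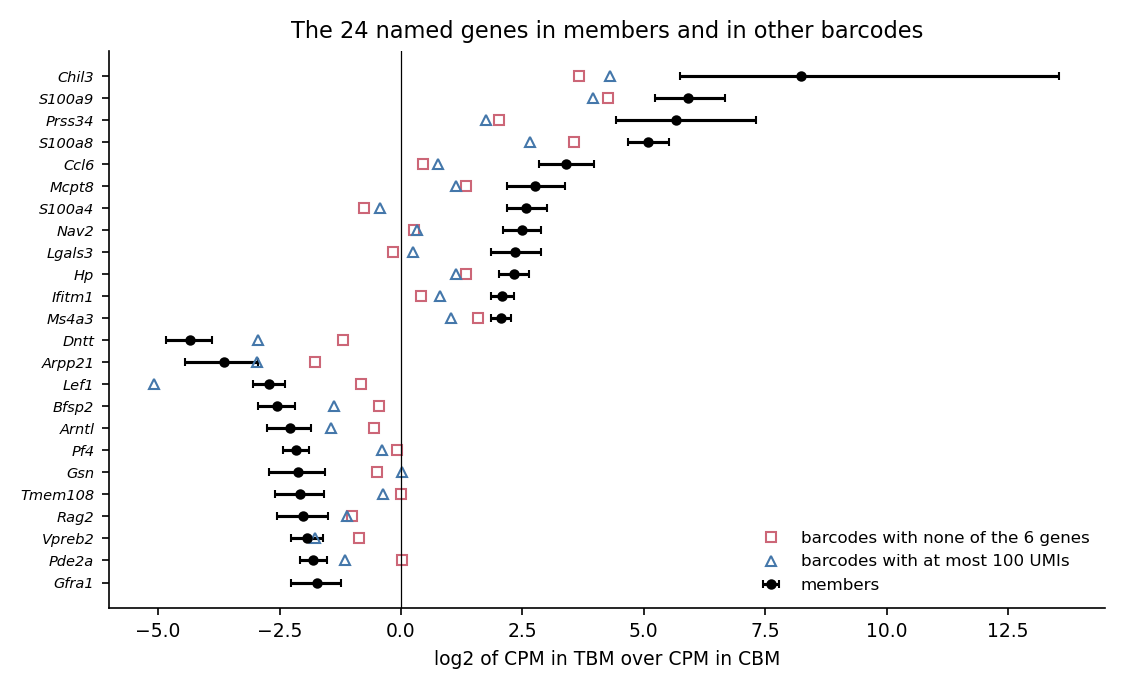
log2 ratio of TBM over CBM for the 24 named genes in members (black, with the 95% conditional binomial interval, counting error only), in barcodes with none of the 6 rule genes (squares), and in barcodes with at most 100 UMIs (triangles). The symbols of *Gfra1* outside the members are not drawn, since it had 0 UMIs in TBM there. *S100a8* and *S100a9* are higher in TBM in all 3 populations, and *Nav2* stands at 2.49 in members and 0.26 in barcodes with none.

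Because the surrogate light chain share differed, TBM and CBM were also set side by side within each class. The class with a surrogate light chain UMI held 221 CBM and 56 TBM members, and the class without it 70 and 152. The class is cut from rule genes and depends on depth: in TBM the class with it was deeper (median 7837 against 3154.5 UMIs), and in CBM 5573 against 3789.5. Members with 7 genes of another type were 26 of 221 and 9 of 70 in CBM, and 13 of 56 and 30 of 152 in TBM.

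Among members with the surrogate light chain, 74 of 3187 genes were at least 2-fold higher in TBM (2.32%) and 118 at least 2-fold lower (3.7%). *Dntt* had 651 CPM in CBM and 55.3 in TBM (log2 ratio -3.56, -4.06 to -3.10), with a UMI in 147 of 221 and 10 of 56 members. *Lef1* had 463 and 85.03 CPM (-2.45), *Rag2* 110 and 11.3 CPM (-3.28), and *Bst1*, an ectoenzyme of early B-lineage cells, 129 and 28.3 CPM (-2.18). *Rag1* had 282 and 66.6 CPM (-2.08, -2.54 to -1.65). *Igkc* had 342 and 1292 CPM (1.92, 1.77 to 2.07), and 322 and 737 CPM without the member of each library that held most of its UMIs, which in TBM had 407 of 912. *Ccnd2* had 140 and 376 CPM (1.42) and *Ccnd3*, the D cyclin of cycling pre-B cells, 338 and 156 CPM (-1.12). The class was cut from rule genes, so these values are a description. The 3 deepest members held 21.6% of the UMIs of the 56 TBM members, which sets how far single barcodes weigh here. Without members that carried 7 genes of another type, *Dntt* had 802 and 114 CPM, *Rag1* 357 and 135 CPM, and *Igkc* 436 and 1432 CPM, while *Vpreb2*, at 282 and 130 CPM over the class, came within 2-fold (354 and 274 CPM), as did *Ccnd3* (417 and 221 CPM). This set and the one without the highest member were chosen after the values were seen.

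Among members without it, 62 of 3254 genes were at least 2-fold higher (1.91%) and 24 at least 2-fold lower (0.738%). *Igkc* had 2773 and 2287 CPM (-0.28), *Ighm* 3196 and 3100 CPM (-0.04), and *Vpreb3* 2338 and 2017 CPM (-0.21), all within 2-fold. *Rag1* had 243 CPM in CBM and 371 in TBM (0.61, 0.28 to 0.95), and *Il7r* 353 and 690 CPM (0.97, 0.70 to 1.24). *Rag1* thus had opposite signs in the classes. *Il7r* did too, with 383 and 289 CPM (-0.40) among members with the surrogate light chain, but there it was 468 and 568 CPM without members that carried 7 genes of another type. *Ms4a1* did the reverse, with 178 and 108 CPM (-0.72) without it and 1.11 and 39.7 CPM with it, where CBM had 2 UMIs. *Dntt* had 2 UMIs in CBM and 1 in TBM in this class, and *Vpreb2* 0 in both. The class was cut on *Vpreb1*, with which *Vpreb2* shares sequence, so its 0 is not independent of the cut.

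**Figure D5:**
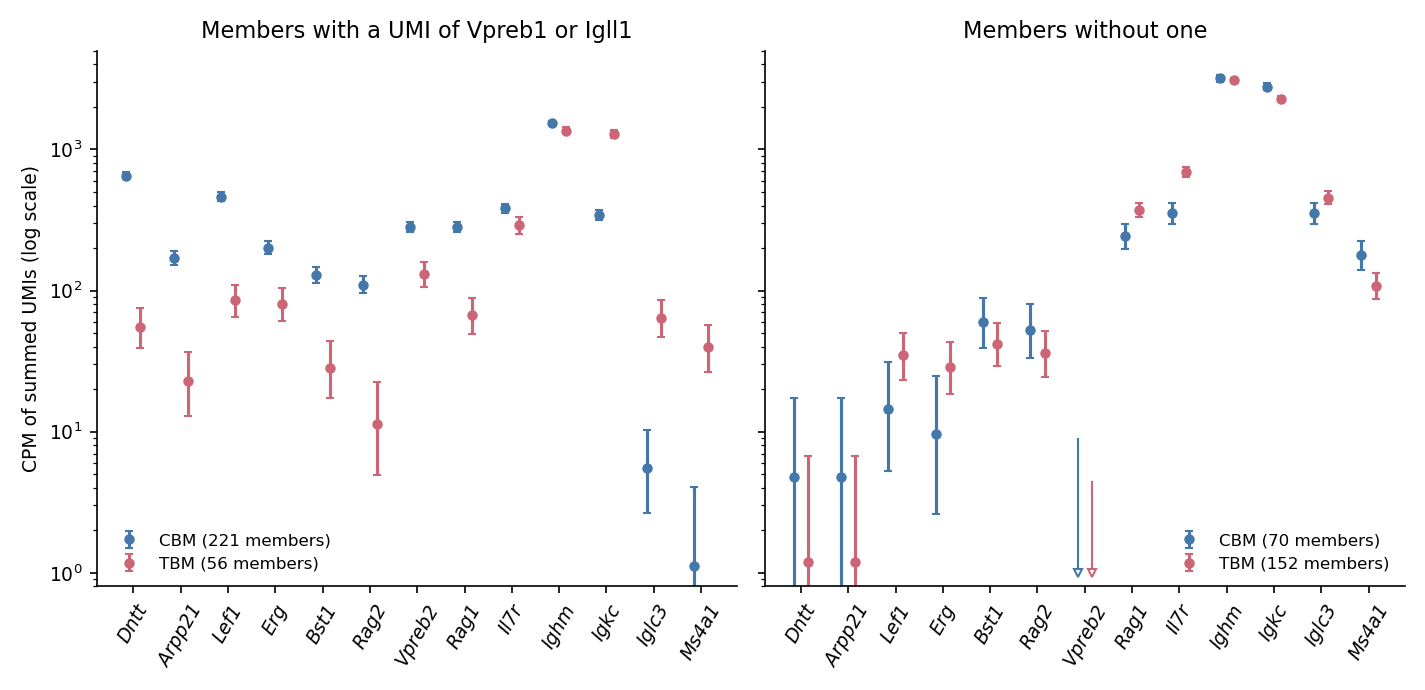
CPM (log axis) of 13 genes in CBM and TBM members with a UMI of *Vpreb1* or *Igll1* (left; 221 and 56 members) and without one (right; 70 and 152 members). Error bars are 95% exact Poisson intervals (counting error only), and open triangles mark genes with no UMI, with a line up to the upper limit. On the left *Dntt* lies at 651 and 55.3 CPM and *Igkc* at 342 and 1292; on the right *Igkc* lies at 2773 and 2287 CPM.

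The gene lists describe the same members by function. Of 19 counted early B-cell transcription factors, 0 were at least 2-fold higher and 3 at least 2-fold lower in TBM (*Lef1*, *Erg*, and *Tcf4*), with a median log2 ratio of -0.28, where 1.38% of all counted genes were higher and 1.87% lower (median -0.01). *Erg*, a factor of stem cells and pro-B cells, had 165 and 52.6 CPM (-1.65), and *Tcf4*, an E protein, 355 and 171 CPM (-1.05), while *Ikzf1* (Ikaros, 0.28), *Bach2* (0.17), *Irf4* (0.19), and *Tcf3* (E2A, -0.28) were within 2-fold. *Ikzf3*, which encodes Aiolos and increases as pre-B cells mature, had 48.4 and 91.6 CPM (0.92). With the surrogate light chain the list had 0 higher and 4 lower of 18, with a median of -0.54, against 2.32% and 3.7% of all genes counted in that class, and without it 0 and 0 of 17 (-0.20), against 1.91% and 0.738%.

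Of 13 counted recombination and pro-B genes, 0 were higher and 5 lower (*Rag2*, *Dntt*, *Vpreb2*, *Bst1*, and *Arpp21*), with a median of -0.54, against 1.38% and 1.87% of all counted genes. 4 of the 5 are among the 12 lowest genes given above. *Rag2*, *Dntt*, *Bst1*, and *Arpp21* were under 50 CPM in TBM, so the limit for counting fixed their direction. The same limit applied within each class. The rest included *Lig4*, the end-joining ligase (0.08), *Ly6d* (0.29), and *Akap12* (-0.08). With the surrogate light chain 7 of 12 were lower (median -1.15), against 3.7% of all genes counted in that class, and without it 1 of 10 (-0.07), against 0.738%. Of 13 genes of pre-B cell receptor signaling, only the adaptor gene *Blnk* passed 2-fold (353 and 158 CPM, -1.16), and it was at 396 and 119 CPM (-1.73) with the surrogate light chain and 168 and 191 CPM (0.18) without it. *Blnk* came within 2-fold with members weighted equally (437 and 302 CPM) and without members that carried 7 genes of another type (462 and 298 CPM). *Syk* (0.36), *Btk* (-0.41), *Lyn* (-0.04), and *Blk* (0.81) were within 2-fold.

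Of 5 counted immunoglobulin constant genes, 3 were at least 2-fold higher in TBM (*Igkc*, *Iglc2*, and *Iglc3*), against 1.38% of all counted genes, and in members without the surrogate light chain 0 of 5 were, against 1.91%. The mature B-cell list had 1 of 3 higher, *Ms4a1* (34.4 and 76.7 CPM, 1.16). *Iglc2* and *Ms4a1* were under 50 CPM in CBM, so the limit for counting fixed their direction. In members without the surrogate light chain this list had 0 higher and 2 of 4 lower (median -0.94), against 1.91% and 0.738% of all genes counted there. *Cr2* and *Fcer2a*, receptors of mature follicular cells, were at or near 0: *Cr2* had a UMI in 5 CBM members and 1 TBM member, and *Fcer2a* in 0 and 1. Immunoglobulin variable genes were counted as families only, and the heavy chain family summed to 22 UMIs in CBM and 19 in TBM, and the kappa family to 28 and 61.

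Over all members, 0 genes of the cell cycle lists passed 2-fold, and with the surrogate light chain 1 of 17 G2/M genes was lower. Of 17 S phase genes the median was -0.19, and of 17 G2/M genes -0.35. *Mki67* had 487 and 436 CPM (-0.16, -0.30 to -0.02), in 90 and 55 members, with thinned shares of 21.1% in CBM and 18.3% in TBM, and its sign changed with the members taken: without the surrogate light chain it had 238 and 431 CPM (0.86), and 262 and 145 CPM when members with 7 genes of another type were also left out. Of 7 interleukin 7 and survival genes, 0 passed 2-fold over all members, with *Myc* at 0.85, *Ccnd2* at 0.85, *Mcl1* at -0.08, and *Ccnd3* at -0.96. With the surrogate light chain 2 of the 7 were higher and 1 lower, against 2.32% and 3.7% of all genes counted in that class.

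Of 5 NF-κB and inflammatory genes, 2 were higher (*Ier3*, 43.4 and 139 CPM, and *Ccl3*, 33.9 and 73.4 CPM), against 1.38% of all counted genes, and each was found in few members (34 and 35, 18 and 17). Both were under 50 CPM in CBM, so the limit for counting fixed their direction. The list median was 0.68 over all members, 0.08 with the surrogate light chain (1 of 4 higher, against 2.32% of all genes counted there), and -0.00089 without it (1 of 7 higher, against 1.91%). *Nfkbia*, the NF-κB inhibitor, had 190 and 304 CPM (0.68), in 174 and 142 members. *Tnf* was near 0, with a UMI in 2 CBM and 6 TBM members, and *Cxcl2* had 0 UMIs in CBM and 16.9 CPM in 6 TBM members. In TBM, 1 member held 17 of the 26 *Cxcl2* UMIs. The *Cxcl2* level in TBM was higher in barcodes with none of the rule genes (33.1 CPM) and in free RNA (26.1 CPM). Of 8 glycolysis genes, 1 was higher, *Ldha* (219 and 468 CPM, 1.10), and all 8 had a positive log2 ratio, with a median of 0.60 that was 0.11 without members that carried 7 genes of another type. In barcodes with none of the rule genes the median of these 8 was 0.49.

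Of 16 immediate early genes (median 0.22), 9 homing and adhesion genes (0.09, with *Cxcr4* at 0.51), and 4 genes of the ATF4 stress response (0.21), 0 passed 2-fold. Of 6 glucocorticoid response genes 1 was lower, *Sgk1* (118 and 55.2 CPM, -1.09), and of 2 MHC class II genes 0 passed over all members, while 1 was higher with the surrogate light chain (median 1.02), against 2.32% of all genes counted there, and both were lower without it (-1.33), against 0.738%. Of the lists of other cell types, where 1.38% of all counted genes were higher and 1.87% lower, 5 of 10 granulocyte and monocyte genes were higher (median 1.09, and 0.57 over the list in barcodes with none), and the median was 0.32 without members that carried 7 genes of another type. Of 6 erythroid genes 2 were higher (median 0.83), with 0 higher and 4 lower among members with the surrogate light chain (-3.41) and 5 higher among those without it (4.99), where 3.7% of all genes were lower and 1.91% higher. The erythroid median was 3.97 without the 5% deepest members, and 1 member held 2177 of 6064 hemoglobin UMIs in CBM and 1 held 3635 of 7644 in TBM. Of 2 counted mast cell and basophil genes, of 8 in the list, both were higher. They had 2.26 (*Prss34*) and 14.0 CPM (*Mcpt8*) in CBM, so the limit for counting fixed their direction. *Mzb1* was lower in the plasma cell list (647 and 246 CPM, -1.39), *Tcf4* in the plasmacytoid dendritic list, and *Pf4* in the megakaryocyte list. With members weighted equally, *Ldha* (149 and 204 CPM), *Sgk1* (146 and 95.4), *Ier3* (44.6 and 86.5), *Ccl3* (30.4 and 40.3), and *Tcf4* (455 and 231) came within 2-fold. The T and NK list had 10 of 15 genes at 0 UMIs in CBM members and 10 in TBM members, and 5 in CS and 4 in TS.

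In TS, the 32 members carried *Rag1*, *Il7r*, *Vpreb3*, and *Ighm* at levels near those of TBM, while other genes stood further apart. *Lef1* had 101 CPM in TS and 57.8 CPM in TBM, and *Cd93* had 106 and 168 CPM. Without members that carried 7 genes of another type, *Rag1* had 281 CPM (197 to 389) in TS and 404 CPM in TBM. Over all TS members, *Rag1* had 192 CPM (136 to 263) in 18 of 32 members, *Il7r* 545 CPM in 29, *Vpreb3* 1891 CPM in 29, and *Ighm* 1815 CPM in 31. *Dntt* had 1 UMI, and the surrogate light chain was found in 14 of 32 (43.8%, 26.4 to 62.3). *Nav2* had 151 CPM, in 15 of 32 members. *Igkc* was found in 26 of 32 members, and 1 of them held 4147 of its 4454 UMIs, so its level of 22458 CPM rests on that barcode. Likewise 1 member held 206 of 209 *Jchain* UMIs and 1 held 1958 of 2055 *S100a8* UMIs. Fewer than 50 members per library were too few for a comparison across genes in spleen, and none was made.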

How the data were processed

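Single-cell RNA-seq was performed on CBM, TBM, CS, and TS, with 1 library each. The authors deposited unfiltered, whole-number UMI counts per gene and barcode, made with Cell Ranger 4.0 on mm10 per the labels and the submitters' processing notes (10x 3′ v3.1 chemistry). The removal of free RNA and the clustering that the study describes are not in these counts. Members, lists, and named genes were chosen with earlier results of these data known. Library totals ran from 101811035 to 176094297 UMIs.

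UMIs were summed over members and scaled to CPM, with 95% exact Poisson intervals for levels, exact Clopper-Pearson intervals for shares, and exact conditional binomial intervals for ratios. A ratio against 0 UMIs used 3 counts. No doublets were called; barcodes with at least 7 genes of another type's list were left out in an alternative. For shares, members were thinned to 2000 UMIs. Named genes were the 12 highest and 12 lowest TBM to CBM ratios among counted genes whose interval excluded 0, found in at least 5 members of the higher library and with the same direction under equal weights, without mitochondrial, ribosomal, hemoglobin, immunoglobulin variable, Xist, and unnamed genes. The 12 leading genes were those with the highest smaller value of the 2 ratios over barcodes with none of the 6 genes. Genes of the 27 fixed lists could also be named, and some items of these lists are not reported here. The code was tested on simulated data. Python 3.11.15, numpy 2.4.6, scipy 1.17.1, and pandas 2.3.3 were used. Positions are from GENCODE annotation of GRCm38.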

Additional observations from a re-analysis of the deposited data

Results flagged for a closer look

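The share of B-lineage members was lower in TBM than in CBM and higher in TS than in CS. It was 7.32% in CBM and 3.69% in TBM, and 0.256% in CS and 0.574% in TS. With 2 of the 6 genes as the limit it was 1.82% in CS and 1.51% in TS, so the direction in spleen turned, and the intervals of CS and TS overlapped under the limit of 3. The direction held with 4 of the 6 genes (0.0767% and 0.449%) and after thinning to 2000 UMIs (0.0611% and 0.498%). The intervals did not overlap in either setting, where CS held 3 and 2 members. Each group is 1 library, so the difference between tissues was not tested. CS held 10 members, and those with 3 of the 6 genes went against the label in their summed levels.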

How the results depend on the processing

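No paired analysis was possible because each group is 1 library and no replicate numbers exist. The share of members in CBM was 5.18% with at least 350 genes, 9.64% with 2 of the 6 genes, 0.780% without members carrying 3 genes of another type, and 6.44% without those carrying 7. In TBM it was 4.42% with at least 1000 genes, 1.82% with 350, 2.70% with 4 of the 6 genes, 6.13% with 2, 0.0710% and 2.93% without members carrying 3 and 7 genes of another type, and 3.21% with 2 UMIs of each gene. In CS it was 0.0767% with 4 of 6, 1.82% with 2 of 6, 0.0256% without members carrying 3 genes, and 0.0611% thinned first, and in TS 1.51% and 0.179% with 2 of 6 and without members carrying 3 genes. The TS share was 0.449% with 4 of 6 and 0.498% thinned first. The planned limit of 3 genes left 31 CBM and 4 TBM members, so the limit of 7 and the class without the surrogate light chain were added after seeing the data.

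The genes at least 2-fold higher and lower numbered 113 and 139 at a mean of 20 CPM, 24 and 31 at 100 CPM, 307 and 507 with no minimum, 89 and 174 with the limit of 3 genes, and 74 and 118 in the surrogate light chain class. The higher genes were 79 with mitochondrial, ribosomal, hemoglobin, and immunoglobulin genes out of the total, 81 with members weighted equally, 71 without the 5% deepest, and 74 with the limit of 7; the lower were 24 without the surrogate light chain, where 72.1% of calls were higher against 42.5% in all. Of the 106 genes called, 90 were still counted with equal weights and 64 of these stayed past 2-fold, as did 56 of 86 with the limit of 7, 18 of 38 with the limit of 3, and 22 of 77 without the surrogate light chain, where 61 of 77 kept their direction. With 10% free RNA subtracted, 58 genes were higher and 72 lower, and 101 of the 106 called genes were still counted. The median over all counted genes moved by less than 0.1.

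Signs of single genes changed as follows. *Mki67* was 0.11 with 4 of 6 genes, 0.032 without the deepest members, and 0.86 without the surrogate light chain. *Rag1* was 0.18 with equal weights, 0.85 and 0.18 with the limits of 3 and 7, and 0.61 without the surrogate light chain, and *Cd93* 0.091 and 0.057 with equal weights and without it. *Ccl6* was -0.35 with the limit of 7. With the surrogate light chain *Il7r* was -0.40 and *Ighm* -0.18. Without it *Lef1* was 1.27, *Bfsp2* 0.58, *Pf4* 1.85, *Igkc* -0.28, and *Ighm* -0.044, where the intervals of *Lef1*, *Bfsp2*, and *Ighm* included 0. Of 25 list medians, 21 changed sign under at least 1 alternative, many from a value near 0. The granulocyte and monocyte median was -0.22 with the limit of 3. With the surrogate light chain the erythroid median was -3.41 and that of MHC class II 1.02, and without it MHC class II was -1.33, the constant gene median -0.044, the megakaryocyte median 1.85, G2/M 0.41, and S phase 0.16. The share of CBM members with *Dntt* was 32.1% thinned to 1000 UMIs and 51.2% not thinned. The causes were not tested. In all, 430 gene values under alternatives kept their direction and side of 2-fold, 9 came within 2-fold, 4 passed it, and 17 changed sign. Alternatives that changed only the lowest mean CPM cannot move the ratio of a gene, so part of the 430 was fixed in advance.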
